A study of Mus musculus with 18 samples.

Results

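The proteasome subunit genes were taken from the deposited expression table by their symbols, as every gene whose symbol starts with Psm, a letter from a to g and a digit. The pattern found 50 genes among 23949 with a unique symbol, and 48 of them passed the filter on low values (at least 1 RPKM in at least 3 libraries). The RNA came from regulatory T (Treg) cells, the T cells that restrain immune responses, sorted from C57BL/6 mice as CD4+CD25hi cells. The 6 genotypes had 3 libraries each. miR-23 Tg, miR-24 Tg and miR-27 Tg cells overexpressed a single microRNA family in T cells, and cluster Tg cells overexpressed the whole miR-23 cluster. DKO cells carried a T cell-specific deletion of both clusters (miR-23a and miR-23b), and WT served as control. The labels write the last 2 groups as DKO Tg and WT Tg, and the series title names CD4cre. What Cre or transgene the WT mice carried is not stated in the labels. The labels also do not say whether the libraries came from separate animals, so p-values measure the spread between these samples, which may be technical.

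The proteasome is the barrel-shaped protease that degrades ubiquitin-tagged proteins. Its 20S core has outer rings of alpha subunits and inner rings of beta subunits, of which Psmb5, Psmb6 and Psmb7 carry the active sites. The 19S cap recognises, unfolds and feeds in substrates: its base holds the Psmc ATPases and the scaffold subunits, and its lid removes ubiquitin. In immune cells, and in other cells under interferon, the active subunits are replaced by Psmb8 (for Psmb5), Psmb9 (for Psmb6) and Psmb10 (for Psmb7), which gives the immunoproteasome, known for making peptides for MHC class I. Psme1 and Psme2 form the interferon-inducible 11S activator.

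Values are RPKM, read density per length of transcript scaled to the library's mapped reads, so levels can be compared between genes. Differences are log2 fold changes on log2(RPKM + 0.5). Calls are genes with an adjusted p under 0.05 (limma, Benjamini-Hochberg over all 11520 genes tested in that comparison). Sequencing depth, read from the spacing of low values, was 20.66 to 31.78 megareads, and 10710 to 11121 genes a library reached 1 RPKM. Treg markers (Foxp3, Il2ra, Cd4, Ctla4, Ikzf2 and Cd3e) summed to 1490 to 1920 RPKM over all libraries, but did not move together. Foxp3, the factor that defines Treg cells, was below every WT library (286.6 to 336.2 RPKM) in miR-23 Tg (215.3 to 248.6 RPKM) and in cluster Tg (206.6 to 282.8 RPKM), and was called in neither (adjusted p = 0.255 and 0.122). Cd4 was called higher in miR-27 Tg (0.40, adjusted p = 0.00977) and in cluster Tg (0.43, adjusted p = 0.00776). In miR-23 Tg, 3 of the 6 markers lay below every WT library. In bulk RNA, fewer cells of a type and less RNA per cell cannot be told apart.

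In WT Treg cells the immunoproteasome subunits were expressed above their constitutive partners. The WT libraries gave Psmb8 at 380.1, 352.1 and 379.2 RPKM and Psmb5 at 36.5, 44.3 and 48.9 RPKM. Psmb9 stood at 234.3, 215.9 and 212.7 RPKM in the same libraries, and Psmb6 at 89.3, 90.8 and 93.7 RPKM. Psmb10 had 130.6, 126.5 and 122.7 RPKM against 93.7, 102.1 and 100.2 RPKM of Psmb7. Each immunoproteasome subunit was thus above its partner in all 3 WT libraries. The ratio was 8.71 ± 1.49 (SD, n = 3) for Psmb8 over Psmb5, 2.42 ± 0.18 for Psmb9 over Psmb6 and 1.29 ± 0.0939 for Psmb10 over Psmb7. The 3 immunoproteasome genes made up 75.5% ± 1.54 (SD, n = 3) of the RPKM of the 6 catalytic genes. These are transcript levels, and subunit protein was not measured.

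Across the other roles in WT, the 7 alpha ring genes ran from 14.3 RPKM (Psma5) to 162.9 RPKM (Psma7), and the 4 non-catalytic beta genes from 53.8 RPKM (Psmb3) to 207.9 RPKM (Psmb4). The 6 ATPases of the 19S base lay between 58.4 RPKM (Psmc1) and 104.8 RPKM (Psmc3). The 8 lid genes ran from 31.1 RPKM (Psmd11) to 101.4 RPKM (Psmd8). Assembly chaperones, which build the particle and leave it, were lower, from 9.12 RPKM (Psmd9) to 54.5 RPKM (Psmg4). The most abundant member was Psme1, at 399.1 ± 23.1 RPKM (SD, n = 3), and Psme2 had 124.5 ± 8.15 RPKM. Psmf1, an inhibitor of the core particle, had 13.1 RPKM. The members that failed the filter were Psma8, a testis alpha subunit with at most 0.204 RPKM in any library, and Psmb11, the thymic cortex subunit with at most 0.0591 RPKM. Psmc3ip matches the pattern by name, but encodes a recombination cofactor and no proteasome subunit. Psme2b is a near-identical copy of Psme2, so the split of reads between them is uncertain.

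The 3 immunoproteasome subunits were called by limma in 0 of the 7 comparisons. Of all genes, 0.0174% (DKO against WT) to 28.6% (miR-27 Tg against WT) were called. In the comparisons with WT, 0 of the 3 had an unadjusted p under 0.05. Of all genes, 2.2% (DKO) to 39.5% (miR-27 Tg) did, so 0 of 3 says little where that share was low. Psmb8, which takes the place of Psmb5 and its chymotrypsin-like activity, read 385.2, 434.0 and 487.3 RPKM in miR-27 Tg and 477.5, 417.5 and 458.0 RPKM in cluster Tg. All of these were above the highest WT library. The log2 difference from WT was 0.23 in miR-27 Tg (95% interval -0.06 to 0.51, adjusted p = 0.229) and 0.28 in cluster Tg (-0.01 to 0.57, adjusted p = 0.143). Psmb9 read 226.5, 257.7 and 285.4 RPKM in miR-27 Tg, overlapping WT, and 264.5, 261.9 and 249.8 RPKM in cluster Tg, above WT. Its log2 differences were 0.21 (adjusted p = 0.233) and 0.23 (adjusted p = 0.203). Psmb9 overlaps Tap1 on the other strand, and the labels do not state stranded counting.

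Psmb10 overlapped WT in both groups, with 125.7, 133.3 and 166.0 RPKM in miR-27 Tg and 129.3, 120.3 and 127.2 RPKM in cluster Tg. The log2 difference in cluster Tg was -0.01 (-0.31 to 0.29). In DKO cells Psmb8 read 309.9, 315.9 and 421.4 RPKM and the log2 difference was -0.10 (-0.39 to 0.19, adjusted p = 1). DKO libraries 1 and 2 were below all WT libraries and library 3 was above them. The differences of the 3 genes in miR-23 Tg and miR-24 Tg lay between -0.11 and 0.01.

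**Figure D1:**
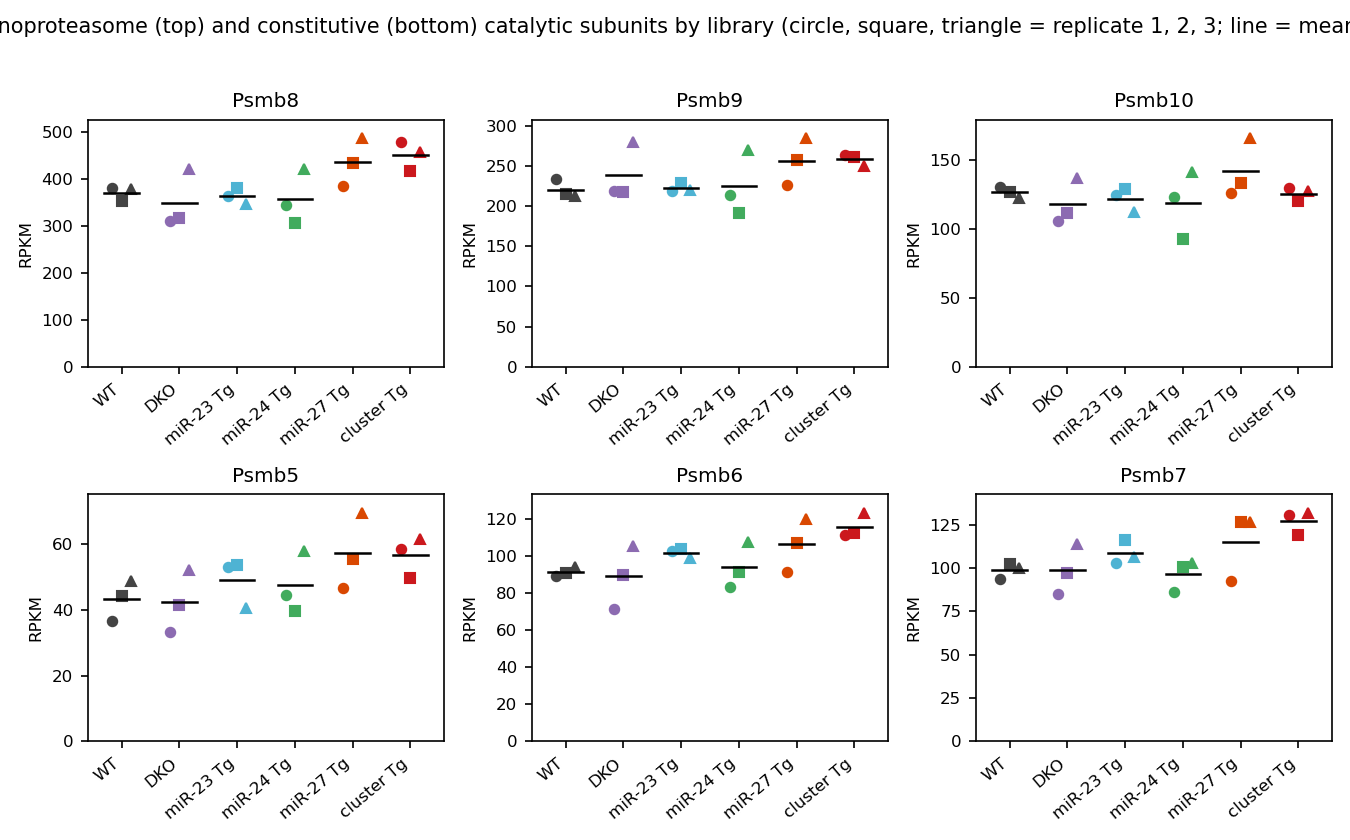
RPKM of the 3 immunoproteasome genes (top) and their constitutive partners (bottom) in each of the 18 libraries, on axes that start at 0, with genotype on the x axis and a line at the mean of 3. Psmb8 lies above every WT library in all miR-27 Tg and cluster Tg libraries, and Psmb10 in cluster Tg overlaps WT.

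Among the constitutive active-site genes, Psmb7, the subunit with trypsin-like activity, was called higher in cluster Tg. It read 130.4, 119.3 and 132.0 RPKM there, above every WT library, with a log2 difference of 0.37 ± 0.13 (SE, adjusted p = 0.0467). Its gene overlaps Nek6 on the other strand. Psmb6 read 111.4, 112.3 and 123.2 RPKM in cluster Tg, also above WT, and its difference of 0.34 did not pass (adjusted p = 0.0697). Psmb5 read 58.4, 49.6 and 61.7 RPKM in cluster Tg, just above the highest WT library, and 46.6, 55.3 and 69.6 RPKM in miR-27 Tg, overlapping WT. Both Psmb5 differences were 0.39, with adjusted p = 0.16 and 0.148.

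As a description without a test, the summed ratio of the 3 immunoproteasome genes to their partners was 3.09 ± 0.266 (SD, n = 3) in WT and 3.09 ± 0.262 in DKO. The value was 2.74 ± 0.0298 for miR-23 Tg and 2.79 ± 0.141 for cluster Tg, with every library of both groups below every WT library. The margin was small for cluster Tg, whose highest library read 2.903. The WT libraries read 3.396, 2.928 and 2.943, so library 1 raised the WT mean. miR-24 Tg (2.95 ± 0.348) and miR-27 Tg (3.01 ± 0.174) overlapped WT. The pair that lay farthest from WT in cluster Tg on the log2 scale was Psmb10 over Psmb7, at 0.988 ± 0.0228 against 1.29 in WT, without overlap. The activator pair Psme1 over Psme2 was 2.53 ± 0.264 in cluster Tg and 3.21 ± 0.289 in WT, again without overlap. In cluster Tg, Psmb8 over Psmb5 and Psmb9 over Psmb6 overlapped WT.

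**Figure D2:**
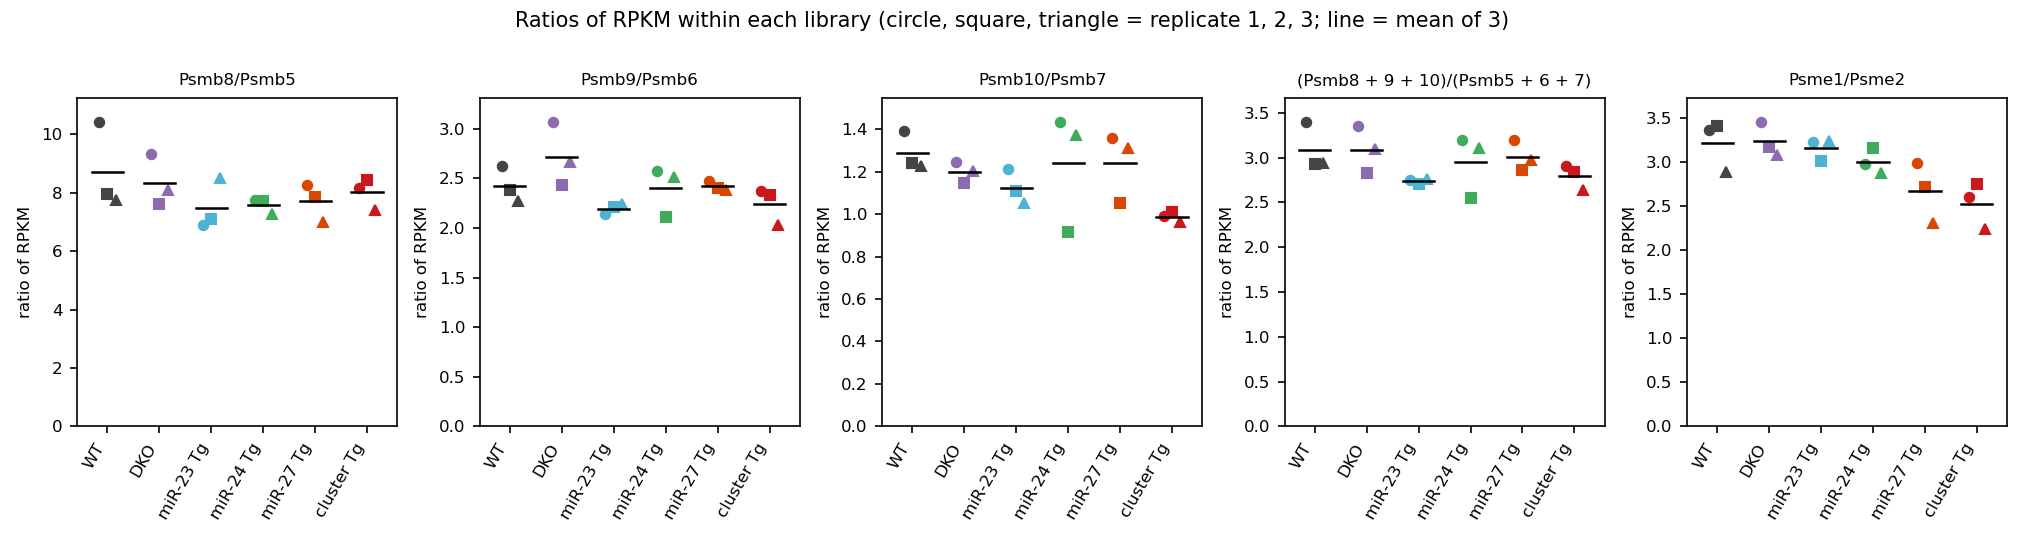
Ratios of RPKM within each library for the 3 subunit pairs, their sums, and Psme1 over Psme2, by genotype, with a line at the mean of 3 and axes that start at 0. In cluster Tg all 3 libraries lie below every WT library for Psmb10 over Psmb7, for the summed ratio and for Psme1 over Psme2. For the summed ratio the nearest libraries are 2.903 in cluster Tg and 2.928 in WT.

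The absence of calls in the immunoproteasome trio can be set beside genes known for induction by interferon. Of 7 interferon response genes (Isg15, Ifit1, Ifit3, Oas2, Mx1, Irf7 and Rsad2), 7 rose in cluster Tg and 7 in miR-27 Tg, where 13.8% and 15.9% of all genes were called higher. limma called 1 higher in miR-24 Tg and 0 in DKO and in miR-23 Tg. In DKO all 7 nevertheless lay above every WT library, with a median of 0.72, and 7 had an unadjusted p under 0.05, where 2.2% of all genes did. In miR-23 Tg 6 of the 7 estimates were below 0, and 2 genes had an unadjusted p under 0.05. Oas2, an antiviral enzyme, had 15.0 RPKM in cluster Tg and 5.32 RPKM in WT (log2 difference 1.39, adjusted p = 0.000457). Among 7 genes for inducers of the immunoproteasome and for peptide loading (Irf1, Nlrc5, Tap1, Tap2, Tapbp, B2m and Erap1), limma called 0 in cluster Tg and 0 in miR-27 Tg, where 24.4% and 28.6% of all genes were called in either direction. At an unadjusted p under 0.05 there were 2 of these genes in cluster Tg (36.9% of all genes) and 1 in miR-27 Tg (39.5% of all genes). Tap1, the peptide transporter next to Psmb9, had a difference of 0.27 in cluster Tg (adjusted p = 0.123), overlapping WT. B2m had the largest estimate of that list in cluster Tg, 0.39, and was not called. It read 5370, 4924 and 4725 RPKM against 3853, 3883 and 3691 RPKM in WT. Of the 7 estimates, 4 were below 0. The difference between these lists was not tested.

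In miR-27 Tg against WT, 3 of 48 members were called, all higher, where 28.6% of all genes were called and 15.9% were called higher. Psmd1 and Psmd2, the large scaffold subunits of the 19S base, were the proteasome genes among them. Psmd1 read 40.5, 51.1 and 46.8 RPKM in miR-27 Tg and 35.2, 39.5 and 36.0 RPKM in WT, without overlap, a log2 difference of 0.31 ± 0.08 (SE, adjusted p = 0.0129). Psmd2 read 72.3, 82.5 and 86.9 RPKM against 60.4, 63.2 and 68.6 RPKM, also without overlap, a difference of 0.33 ± 0.09 (SE, adjusted p = 0.0162). Psmd1 overlaps Htr2b on the other strand and Gm21972 on its own. The third was Psmc3ip, at 5.41, 7.41 and 8.63 RPKM against 4.37, 4.01 and 4.76 RPKM, a difference of 0.63 ± 0.18 (SE, adjusted p = 0.0169).

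The other members in miR-27 Tg had small differences. By role, 7 of 7 alpha ring genes, 6 of 6 ATPases and 8 of 8 lid genes had estimates above 0. The same held for 3 of 3 non-ATPase genes of the base (Psmd1, Psmd2 and Psmd4). So did 3 of 3 immunoproteasome genes and 4 of 6 activators and inhibitor, against 2 of 4 non-catalytic beta genes and 2 of 7 assembly chaperones. The median over 48 members was 0.15, against 0.01 over all genes. Of the 48 estimates, 39 were above 0 (81.2%, against 50.7% of all genes). The members share libraries and moved together within them, so this count is no test. Psmg4, an assembly chaperone of the core, had the lowest estimate, -0.41 (adjusted p = 0.0671), with 34.4, 47.4 and 41.4 RPKM below 52.0, 57.5 and 54.1 RPKM in WT. Without miR-27 Tg library 1, 8 members were called higher, and without library 2 none was. The share of all genes called in those fits is not given here, so this change cannot be set against all genes. Cycling cell markers (6 of 6 called) and B cell markers (7 of 7 called, summed level 37 to 104 RPKM against 19.4 to 24.7 in WT, none at 0) also rose in miR-27 Tg. So did 5 of 7 myeloid or dendritic markers (34.1 to 103 RPKM against 17.8 to 24.4 in WT, none at 0), 2 of 4 plasma cell markers, 1 of 2 NK cell markers and 1 of 2 CD8 T cell markers. The part of these cell types in the differences of the members was not tested.

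In cluster Tg against WT, 3 of 48 members were called, all higher, where 24.4% of all genes were called and 13.8% were called higher. Psma6, an alpha ring subunit, read 177.4, 156.9 and 184.1 RPKM in cluster Tg and 128.0, 136.1 and 133.6 RPKM in WT. The groups did not overlap, and the log2 difference was 0.38 ± 0.12 (SE, adjusted p = 0.0386). The others were Psmb7, described above, and Psmc3ip, at 6.14, 6.35 and 7.76 RPKM, a difference of 0.57 ± 0.18 (SE, adjusted p = 0.0322). Psmd13, a lid subunit, read 79.6, 74.7 and 84.4 RPKM against 57.5, 61.0 and 64.2 RPKM and just missed the threshold (0.38, adjusted p = 0.05). It overlaps Sirt3 on the other strand.

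All 7 alpha ring genes, all 4 non-catalytic beta genes, all 6 ATPases and all 3 non-ATPase base genes had estimates above 0 in cluster Tg. So did 7 of 8 lid genes and 2 of 3 immunoproteasome genes, but only 4 of 7 assembly chaperones and 3 of 6 activators and inhibitor. The median was 0.19 over 48 members and 0.02 over all genes. Libraries did not overlap, on the high side, for 21 of 48 members (43.8%), where 22.6% of all genes did so. On the low side that held for 1 member, Psmg4, where 17.8% of all genes did so. Psmg4 read 35.9, 38.6 and 46.3 RPKM, a difference of -0.44 (adjusted p = 0.0602). At an unadjusted p under 0.05 there were 14 members in cluster Tg (29.2%, against 36.9% of all genes) and 6 in miR-27 Tg (12.5%, against 39.5%). None of the 3 calls in cluster Tg held when library 1 of cluster Tg, or any single WT library, was left out. Over all 6 cases of leaving out 1 library of cluster Tg or WT, the calls of Psmb7 and Psmc3ip were lost in 6. The call of Psma6 was lost in 5 of 6. In cluster Tg 5 of 6 cycling cell markers and 0 of 7 B cell markers were called by limma (3 at an unadjusted p under 0.05), and their part was not tested.

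**Figure D3:**
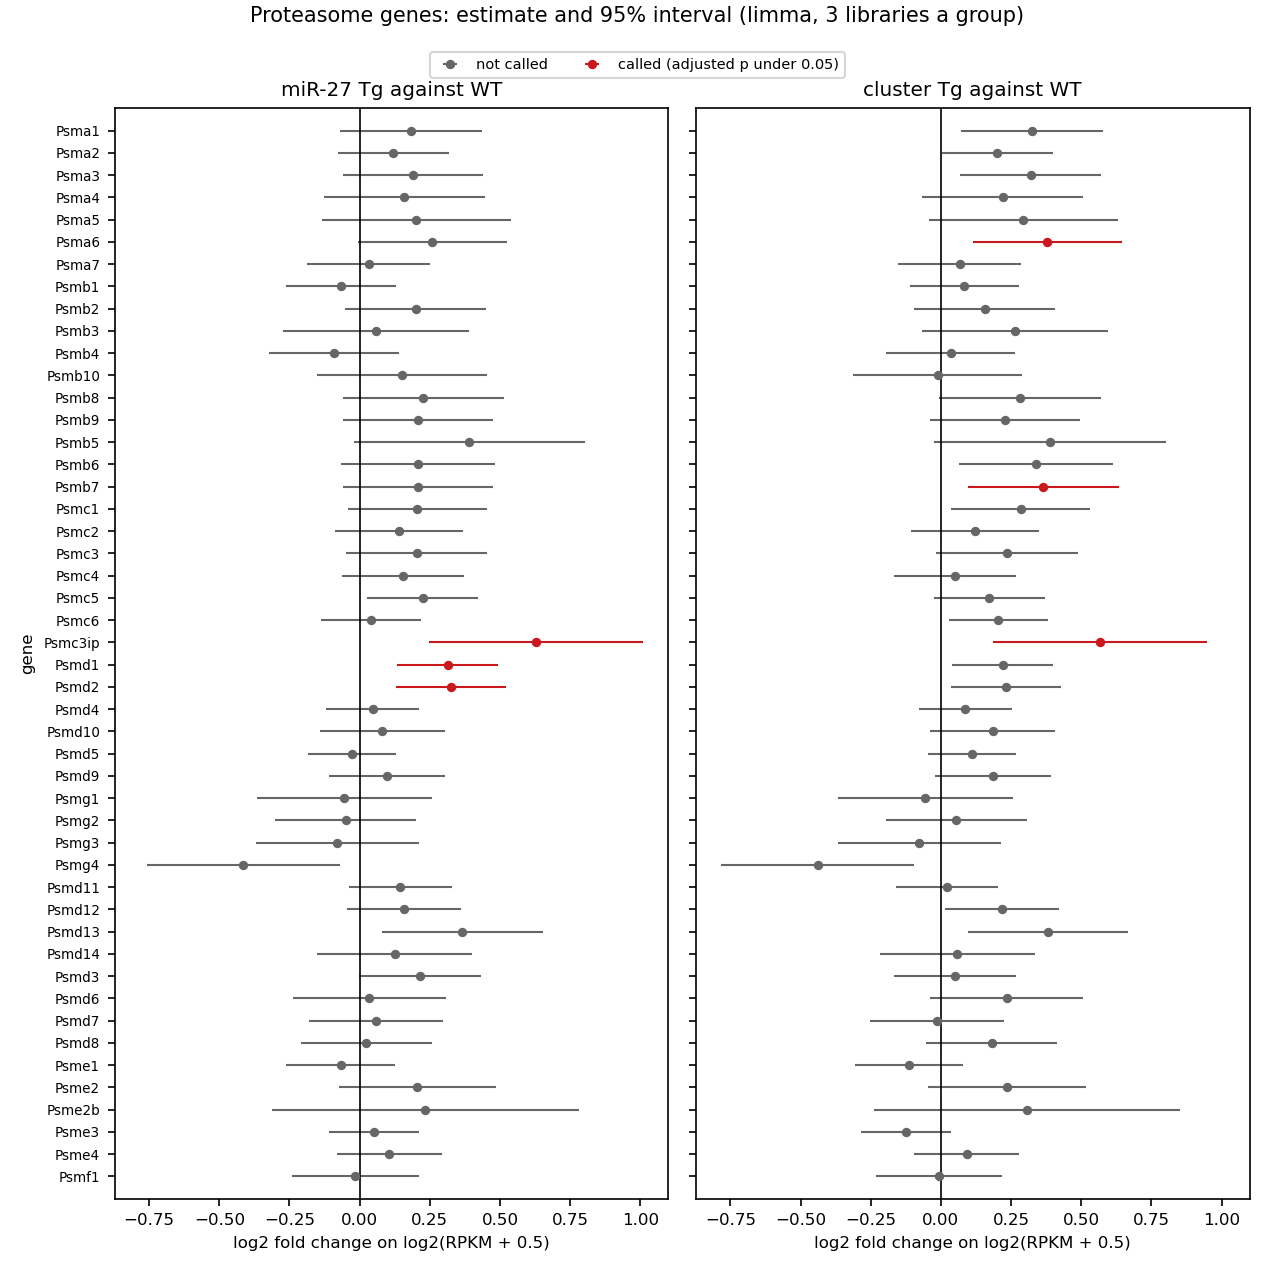
Log2 fold change against WT of the 48 members that passed the filter (points) with 95% intervals from limma (bars), for miR-27 Tg (left) and cluster Tg (right). Called genes are red: Psmd1, Psmd2 and Psmc3ip in miR-27 Tg, and Psma6, Psmb7 and Psmc3ip in cluster Tg, while Psmg4 has the lowest estimate in both.

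In the remaining comparisons limma called 0 of 48 members. In miR-23 Tg 0.356% of all genes were called. At an unadjusted p under 0.05 there were 2 members (4.17%), against 13.6% of all genes. These were Psmc3ip, at 6.31, 6.92 and 5.75 RPKM (0.48, adjusted p = 0.244), and Psme3, the nuclear 11S activator, at 91.9, 84.5 and 83.9 RPKM against 73.2, 80.5 and 77.6 RPKM in WT (0.17, adjusted p = 0.342). Both were above all WT libraries. The libraries did not overlap on the high side for 11 of 48 members (22.9%), where 14.1% of all genes did so. On the low side that held for 0, where 10.8% of all genes did so. The median over the members was 0.10, against 0.01 over all genes. Estimates were above 0 for 35 of 48 members (72.9%, against 52.3% of all genes), which is no test, as for miR-27 Tg. At an unadjusted p under 0.05 the same comparison had 6 of 6 cycling cell markers and 6 of 7 B cell markers, all higher, and their part was not tested.

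miR-24 Tg had 0 members called, where 8.98% of all genes were called, and 0 with an unadjusted p under 0.05, where 24% of all genes were. The smallest p belonged to Psmd3, a lid subunit, at 61.2, 59.1 and 53.6 RPKM against 69.3, 67.3 and 65.4 RPKM in WT (-0.22, adjusted p = 0.208), below every WT library. Psme3 followed, at 73.8, 71.6 and 62.3 RPKM, overlapping WT (-0.16, adjusted p = 0.219). Libraries were separated upwards for 1 member (15.9% of all genes) and downwards for 2 (14.6% of all genes). The 95% interval lay within 1.5-fold for 45 of 48 members, for 67.2% of all genes and for 78.4% of genes with a mean of 10 to 500 RPKM. In miR-24 Tg limma called 6 of 7 B cell markers higher (summed level 39.3 to 89.5 RPKM against 19.4 to 24.7 in WT). It also called 2 of 7 myeloid or dendritic markers (25.5 to 126 RPKM against 17.8 to 24.4 in WT) and 1 of 4 plasma cell markers higher. Of 6 cycling cell markers 0 were called (2 at an unadjusted p under 0.05), and the part of these cell types was not tested.

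DKO cells differed from WT in few genes of any kind (0.0174% called), and had 0 members called and 0 with an unadjusted p under 0.05 (2.2% of all genes). Psmd10, a chaperone of the 19S base, had -0.12, and Psmd11, a lid subunit, had 0.09, both with adjusted p = 1. The interval lay within 1.5-fold for 47 of 48 members, for 80.6% of all genes and for 89.4% of genes with a mean of 10 to 500 RPKM. No member was separated upwards (3.32% of all genes) or downwards (2.73% of all genes). In miR-27 Tg the separated members numbered 6 upwards (22.8% of all genes) and 1 downwards (20.1% of all genes).

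The direct comparisons gave 0 calls among members. Between miR-27 Tg and miR-23 Tg, where 23.4% of all genes were called, 3 members had an unadjusted p under 0.05 (6.25%, against 37.2% of all genes), led by Psmg4 (-0.37, adjusted p = 0.109) and Psme2b (0.56, adjusted p = 0.125). Between cluster Tg and miR-27 Tg, where 6.85% of all genes were called, 1 member did (2.08%, against 24.1% of all genes), Psme3 (-0.18, adjusted p = 0.172), and Psmc6, an ATPase of the base, came next (0.16, adjusted p = 0.242). A test for any difference among the 6 genotypes called 6 members, where 43% of all genes were called. These were Psmd1 (adjusted p = 0.0178), Psme3 (0.0227), Psmd3 (0.0245), Psmc3ip (0.0275), Psmd13 (0.0305) and Psmd2 (0.0325).

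Psme1 and Psme2 were called in none of the 7 comparisons, where 0.0174% to 28.6% of all genes were. The test over the 6 genotypes did not call them either, where 43% of all genes were called. Psme1 read 391.2, 364.6 and 350.7 RPKM in cluster Tg against 424.5, 393.6 and 379.4 RPKM in WT, overlapping, with a difference of -0.11 (adjusted p = 0.394). Psme2 went the other way, at 150.5, 132.8 and 157.1 RPKM against 126.4, 115.6 and 131.6 RPKM, just without overlap (0.23, adjusted p = 0.213). Psme1 overlaps Emc9 on the other strand. Psme2b ran opposite to the other members within groups: it lay on their side of the group mean in 5 of 18 libraries.

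The levels varied little between genotypes. The highest genotype mean was a median of 1.21 times the lowest over the 48 members, and under 1.5 times for 46 of them (95.8%). Over all genes the median was 1.35 and 66.2% were under 1.5 times. Over genes with a mean of 10 to 500 RPKM it was 1.29, and 77.2% were under 1.5 times. Cluster Tg held the highest mean for 24 members, miR-27 Tg for 12 and miR-23 Tg for 9, and miR-24 Tg the lowest for 18.

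**Figure D4:**
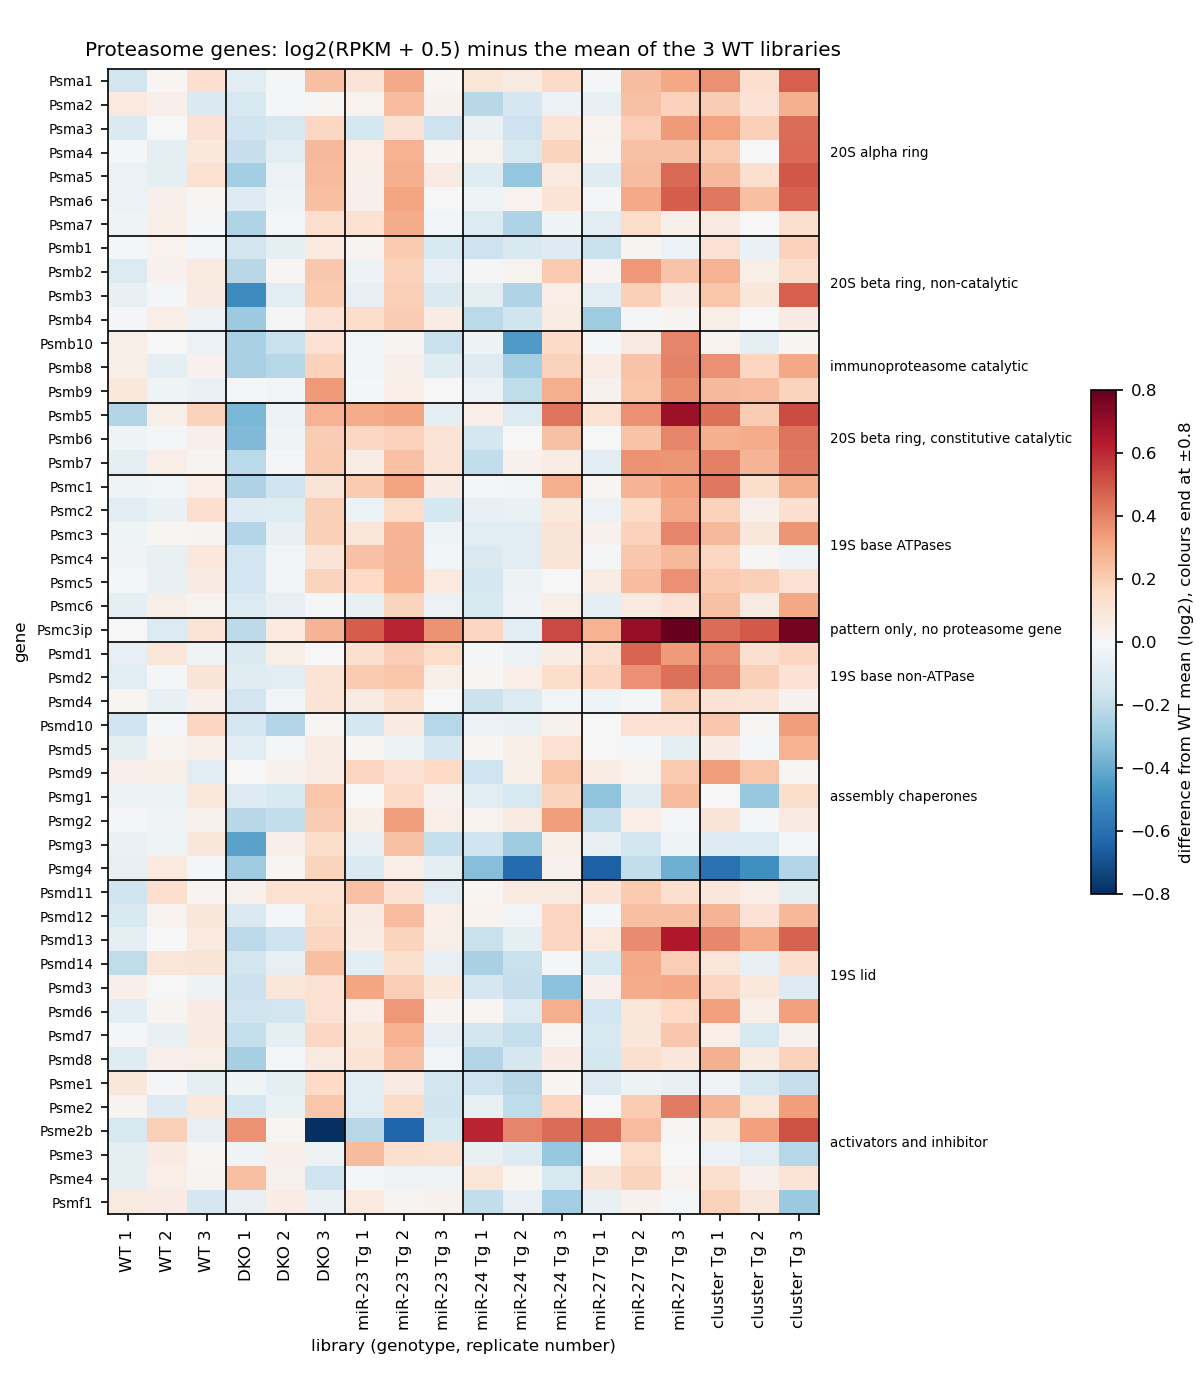
Each cell is log2(RPKM + 0.5) of a member (y axis, by role) in a library (x axis, by genotype), minus the mean of the 3 WT libraries, with colours that end at 0.8. Whole columns are red or blue, such as DKO 1 with 2 and DKO 3 with 44 of 48 members above the DKO mean.

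Libraries of a genotype differed in nearly all members at once. In DKO library 3, 44 of 48 members were above the DKO mean (median 0.19 on the log2 scale), and in DKO library 1, 2 of 48 were (median -0.14). In miR-27 Tg library 1, 3 of 48 members were above the group mean (median -0.17), and in library 3, 42 were. The 3 WT libraries differed least, with medians of -0.05, 0.01 and 0.04. The median of all genes never left its group mean by more than 0.016. Psma1, Psma3, Psma6, Psmd6, Psmd12, Psmd13 and Psmd14 were on the side of the other members in 18 of 18 libraries.

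Transcript length moved with these shifts. Among all genes, transcripts under 1500 bases shifted with the same sign as the members in 16 of 18 libraries, by 0.17 in DKO library 3 and -0.15 in DKO library 1. Transcripts over 4000 bases shifted by -0.14 and 0.12 there. Of the 48 members, 36 had transcripts under 2000 bases, and in DKO library 3 these shifted by 0.21 and the 12 longer ones by 0.04. Between genotypes, cluster Tg against WT gave 0.08 for short transcripts of all genes, 0.20 for short members and 0.15 for long members. miR-27 Tg against WT gave -0.003 for short transcripts of all genes, 0.16 for short members and 0.11 for long members. The part of length in the differences between genotypes was not tested.

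**Figure D5:**
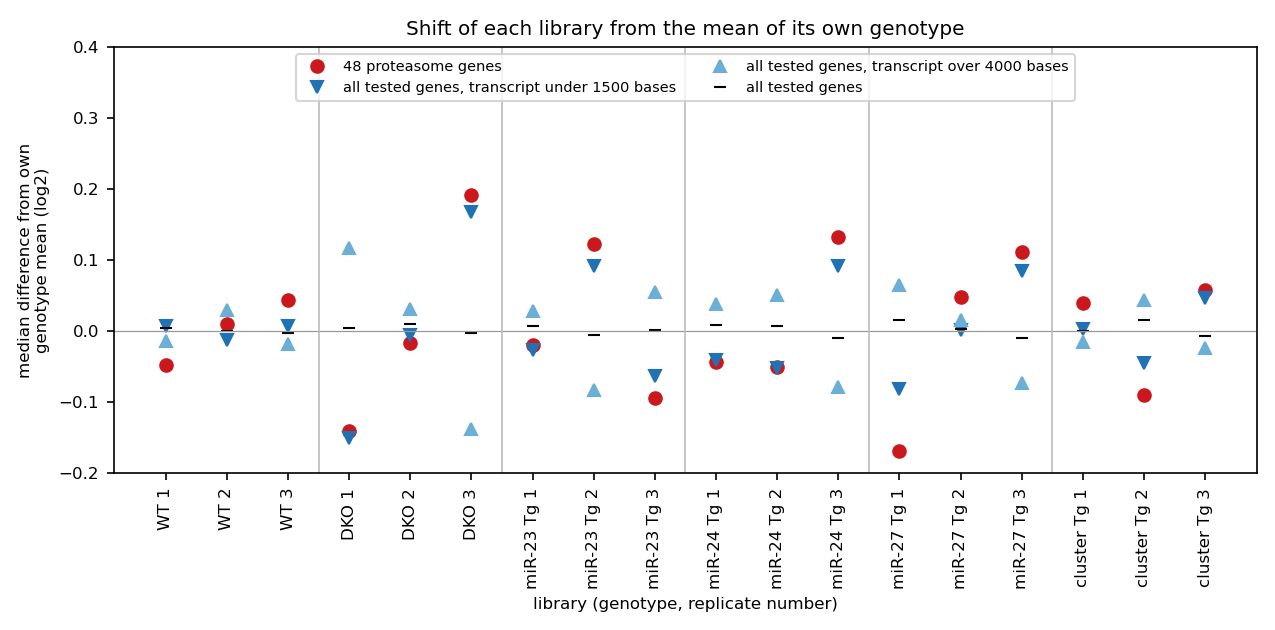
Median log2 difference of each library from the mean of its own genotype, for the 48 members (circles), for all tested genes with transcripts under 1500 bases or over 4000 bases (triangles) and for all tested genes (dashes). The members follow the short transcripts in 16 of 18 libraries, from -0.17 in miR-27 Tg 1 to 0.19 in DKO 3.

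The number of calls depended on whether this shift was modelled. With the short-minus-long difference of each library, computed without the members, as a covariate, 21 members were called higher in miR-27 Tg, where 19.5% of all genes were called higher. In cluster Tg 10 members were called higher, where 16.8% of all genes were. The median SE of the members against WT went from 0.12 to 0.07. Psmb8 (0.28, adjusted p = 0.0119) and Psmb9 (0.25, adjusted p = 0.0362) were among the calls in miR-27 Tg, while neither was called in cluster Tg. Psmg4 was called lower in both, at -0.37 (adjusted p = 0.0302) and -0.52 (adjusted p = 0.00691). This covariate was chosen after the shifts had been seen. It also takes up any effect of genotype on short transcripts, so these calls are not given as the result.

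The overexpressed microRNAs pair through their seed, bases 2 to 8, with sites in 3' UTRs, the untranslated ends of mRNAs, and usually lower the target. The mature sequences from RefSeq show which letters were searched for (seed in capitals), and miR-27a and miR-27b share a seed.
mmu-miR-23a-3p: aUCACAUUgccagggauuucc
mmu-miR-24-3p: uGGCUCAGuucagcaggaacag
mmu-miR-27a-3p: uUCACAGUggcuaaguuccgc
mmu-miR-27b-3p: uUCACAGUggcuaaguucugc
The sites AATGTGA (miR-23), CTGAGCC (miR-24) and ACTGTGA (miR-27) were rare in proteasome genes. Of 46 tested members with an annotated 3' UTR, 1 held a miR-23 site (2.17%, against 16.3% of 10174 genes), 5 a miR-24 site (10.9% against 18.9%) and 1 a miR-27 site (2.17% against 17%). The 3' UTRs of the members were short, with a median of 282 bases against 1140 bases over all genes, and these shares were not adjusted for that length.

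The members with sites were Psma3 (miR-23 and miR-24), Psma2, Psmc3, Psmd5 and Psme3 (miR-24) and Psma1 (miR-27). The sites of Psma1, the only one for miR-27, of Psma3 and of Psme3, which held 2, are shown on the mRNA strand with the site in capitals. They lie in 3' UTR exons at chr7:114264628-114264634 (minus strand), chr12:70995341-70995347 (plus strand), chr11:101322412-101322418 and chr11:101323382-101323388 (both plus strand) of GRCm38.
Psma1, miR-27 site: ttttaaagacaACTGTGAaataaaattgt
Psma3, miR-23 site: tttttgtggaaAATGTGAcagcatttatt
Psme3, first miR-24 site: tccatcccgctCTGAGCCtgactgtggcg
Psme3, second miR-24 site: atcccttccagCTGAGCCcctcccctccc
Psma1 was not lower in miR-27 Tg: it read 89.5, 107.3 and 112.1 RPKM against 81.3, 91.4 and 99.0 RPKM in WT, overlapping, with an estimate of 0.18. Psma3 had an estimate of -0.06 in miR-23 Tg, and Psme3 one of -0.16 in miR-24 Tg, given above. The 5 members with a miR-24 site had a median of -0.04 in miR-24 Tg and the members without one had -0.03.

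Promoters are shown for a subunit pair that replaces each other, Psmb5 and Psmb8, and for the activator Psme1, since the interferon genes were called in miR-27 Tg and cluster Tg and these were not. Each runs from 250 bases before to 50 bases after the start site, 5′ to 3′ on the gene's strand, from RefSeq (GRCm38.p6), with motif matches in capitals. Psmb5 lies at chr14:54617946-54618245 (minus strand), Psmb8 at chr17:34197945-34198244 (plus strand) and Psme1 at chr14:55578244-55578543 (plus strand). The Psmb8 and Psme1 windows lie inside the genes as annotated by GENCODE, which start earlier, at 34197721 and 55578123. Sequence before those earlier starts was not searched.
Psmb5 promoter: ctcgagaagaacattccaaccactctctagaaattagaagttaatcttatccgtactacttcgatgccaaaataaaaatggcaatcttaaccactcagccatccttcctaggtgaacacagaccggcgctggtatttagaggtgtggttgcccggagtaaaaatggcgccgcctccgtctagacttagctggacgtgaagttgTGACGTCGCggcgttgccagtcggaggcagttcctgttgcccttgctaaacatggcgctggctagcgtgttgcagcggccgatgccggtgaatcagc
Psmb8 promoter: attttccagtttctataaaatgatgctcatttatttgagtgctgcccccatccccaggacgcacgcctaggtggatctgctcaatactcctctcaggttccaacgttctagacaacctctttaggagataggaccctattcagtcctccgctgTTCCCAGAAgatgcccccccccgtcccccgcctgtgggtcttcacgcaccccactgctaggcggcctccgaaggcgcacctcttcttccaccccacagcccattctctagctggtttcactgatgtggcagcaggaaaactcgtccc
Psme1 promoter: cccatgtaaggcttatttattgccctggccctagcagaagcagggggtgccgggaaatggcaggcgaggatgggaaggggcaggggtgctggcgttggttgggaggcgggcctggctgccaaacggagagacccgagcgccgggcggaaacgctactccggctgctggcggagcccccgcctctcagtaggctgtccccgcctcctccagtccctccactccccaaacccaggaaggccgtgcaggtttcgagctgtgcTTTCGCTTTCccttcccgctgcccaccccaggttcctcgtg
In Psmb5 the capitals mark a match to the core of the antioxidant response element (TGACNNNGC), known as a binding site of Nrf1 and Nrf2, at -47 from the start site. In Psmb8 they mark a GAS match (TTCNNNGAA, the interferon-gamma element) at -97, and in Psme1 a match to the IRF pair (GAAA, any 2 bases and GAAA again, here on the other strand) at 9.

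Both strands were searched in 45 windows of 42 members with a RefSeq entry. The antioxidant core was in 13.3% of them, against 12.4% of 32851 promoters of the same length, GAS in 6.67% against 8.3% and CCAAT in 33.3% against 37.4%. The IRF pair was in 11.1% (Psmb3, Psmd4, Psmd9, Psme1 and Psmg4) against 3.44%. GAS matches were in the windows of Psmb8, Psmd2 and Psmg1. Those of Psmb9, Psmb10 and Psme2 held neither GAS nor the IRF pair. The motifs can overlap each other, and a match is not a bound site.

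Other genes of the pathway came from fixed lists. Of 11 tested proteasome-associated factors, limma called 0 in miR-27 Tg, where 28.6% of all genes were called, and 3 (27.3%) had an unadjusted p under 0.05, against 39.5% of all genes. The calls were 2 (18.2%) in cluster Tg, against 24.4% of all genes, and 3 (27.3%) in miR-24 Tg, against 8.98%. In cluster Tg, Txnl1, a thioredoxin-like protein of the 19S cap, rose by 0.25 (adjusted p = 0.026), and Midn, which carries proteins to the proteasome without ubiquitin, fell by 0.36 on the log2 scale (adjusted p = 0.00763). In miR-24 Tg, Midn fell by 0.38 on the log2 scale (adjusted p = 0.0131) and the ubiquitin receptor Adrm1 fell by 0.28 (adjusted p = 0.0434). AI314180, the older symbol for the proteasome-binding protein Ecm29, rose by 0.30 (adjusted p = 0.0231).

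Of the 7 genes of the Nrf1 axis, which raises proteasome genes when degradation is blocked, limma called 2 for miR-27 Tg (28.6%, the same share as of all genes) and 0 for cluster Tg (2 there at an unadjusted p under 0.05, 28.6% against 36.9% of all genes). Ngly1, the glycanase that matures Nrf1, had 18.3 RPKM in miR-27 Tg and 24.6 RPKM in WT (-0.41, adjusted p = 0.0075). Vcp, the unfoldase that extracts ubiquitinated proteins, had 35.4 and 29.1 RPKM (0.28, adjusted p = 0.0464). Among 10 genes for ubiquitin, its activation and shuttle factors, miR-27 Tg had 2 higher, Uba1 (0.36, adjusted p = 0.0314), the main activating enzyme, and the shuttle Rad23b (0.23, adjusted p = 0.0249), and 1 lower, the shuttle Ubqln4 (-0.32, adjusted p = 0.0136). Cluster Tg had Rad23b higher (0.30, adjusted p = 0.00657) and Ubqln4 lower (-0.42, adjusted p = 0.00351). These 3 calls for miR-27 Tg (30%) and 2 for cluster Tg (20%) stood near the 28.6% and 24.4% of all genes called. These comparisons share the WT libraries. The limma fit called no gene of these 4 lists (with the inducers above) in DKO or in miR-23 Tg against WT. At an unadjusted p under 0.05, DKO had 1 such gene, in the Nrf1 axis list (14.3%, against 2.2% of all genes). It was Nfe2l2, which encodes Nrf2 and not Nrf1, at 19.93, 18.33 and 20.71 RPKM against 15.81, 15.08 and 16.55 RPKM in WT. miR-23 Tg had 1 each in the associated factors (9.09%), the Nrf1 axis (14.3%) and the ubiquitin list (10%), against 13.6% of all genes.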

How the data were processed

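The authors deposited 1 table of RPKM values for the 18 libraries. Per the labels' protocols, total RNA of sorted cells was made into TruSeq libraries. The submitters' processing notes name STAR 2.2.0c, HOMER and mm10 (GRCm38). The annotation and the counting settings are not given in the sources used here. Of 23953 entries, 4 with a repeated symbol were dropped. The 11520 genes that reached 1 RPKM in 3 or more libraries were fitted in R 4.3.3 with limma 3.58.1 (mean-variance trend) on log2(RPKM + 0.5), over all 18 libraries in 1 fit. Tests were two-sided, adjusted by Benjamini-Hochberg within each of 7 comparisons and a moderated F test, and called under 0.05. The code was tested on simulated data.

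Named members were the 6 catalytic genes, Psme1 and Psme2, up to 5 called members per comparison and direction, and where none was called, the 2 with the smallest p. Psmg4, Psmd13, Psme2b, Psma1, Psma3 and the role extremes were added after their values were seen. The other lists gave up to 3 called genes per comparison. In the lists of interferon response genes and of inducers, 1 gene that both held is not reported here and is left out of their counts. The members and lists were chosen with earlier results of these data known. Read depth came from the spacing of low RPKM values, of which 28.4 to 33.1% were within 0.05 of a whole read, so no count test was run. Spread between replicates was 6.57 to 21.3 times counting error. Sequences came from RefSeq (GRCm38.p6), and lengths, coordinates and 3' UTRs from GENCODE (GRCm38). Figures were drawn with matplotlib 3.10.9. Alternatives were the pseudocount, the filter, scaling, the groups fitted, the replicate block, leaving out libraries and, added after the data were seen, 2 covariates for transcript length.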

Additional observations from a re-analysis of the deposited data

How the results depend on the processing

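Direction held for every called member under every alternative run. With a pseudocount of 0.1 or 1 the counts of calls stayed within 1.5 times. Members called higher in cluster Tg numbered 0 with no filter, 1 with median-of-ratios scaling and 5 with only the 2 compared groups in the fit, which also called 1 lower. In miR-27 Tg the last setting called 1 higher. With library 3 of miR-27 Tg and library 1 of miR-24 Tg left out together, 0 were called higher in miR-27 Tg and 1 in the test over 6 genotypes. The mean of the 3 pairwise log2 ratios was 1.40 (miR-23 Tg) and 1.38 (cluster Tg), against 1.45 and 1.48 for the sums. The cause of these changes was not tested. The shares of all genes called under these alternatives, without 1 library or with the replicate block are not given here. Those counts of members can therefore not be set against all genes.

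Leaving out 1 library at a time gave 0 to 3 members higher and 0 to 1 lower in cluster Tg, 0 to 8 higher and 0 to 1 lower in miR-27 Tg, 0 to 2 higher in miR-27 Tg against miR-23 Tg, and 2 (without miR-27 Tg 2) to 14 (without DKO 3) over the 6 genotypes. The call of Psmd1 in miR-27 Tg was lost in 2 of 6 cases and those of Psmd2 and Psmc3ip in 3 of 6. In cluster Tg the calls of Psmb7 and Psmc3ip were lost in 6 of 6 cases and that of Psma6 in 5 of 6. Over the 71 estimates of named members, called or not, the sign changed in 42 of 426 such cases and in 17 of 639 under other alternatives. No change went beyond 0.15, and 0 were of called estimates.

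The replicate number is not known to mark a shared day or litter. Over 45 pairs of libraries with the same number, the correlation of deviations had a median of 0.00397 (-0.167 to 0.188), 6 pairs were over 0.1, and 9 of 18 libraries correlated best with their own number. With the replicate block, 7 members were called higher and 1 lower in cluster Tg, 1 lower in miR-27 Tg and 10 over the 6 genotypes.

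2 forms of the length covariate were run, both chosen after the data were seen. Taken over all libraries, it called 21 higher and 1 lower in miR-27 Tg, 10 higher and 1 lower in cluster Tg, 1 higher in miR-24 Tg, 12 higher in miR-27 Tg against miR-23 Tg, 1 lower in cluster Tg against miR-27 Tg and 20 over the 6 genotypes. The share of all genes called in that form was 36.5% in miR-27 Tg, 29.6% in cluster Tg and 13.2% in miR-24 Tg. Between miR-27 Tg and miR-23 Tg it was 33.5%, between cluster Tg and miR-27 Tg 14%, and over the 6 genotypes 54.1%. The form run first was centred within genotype. It called 14 higher and 1 lower in miR-27 Tg, 23 higher and 1 lower in cluster Tg, 1 higher in miR-23 Tg, 1 higher in miR-24 Tg, 5 higher and 3 lower in miR-27 Tg against miR-23 Tg, and 31 over the 6 genotypes. By construction that form removes the shift from the spread within groups and leaves it in the differences between them, so its standard errors are too small and its counts are given only as a record. The genotype with more calls was miR-27 Tg in one form and cluster Tg in the other.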
